A study of Mus musculus with 10 samples.

Results

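Transcript levels of 10 genes that carry the insulin signal from the cell surface to the kinase AKT and its targets were measured by bulk RNA-seq of visceral white adipose tissue (WAT) of C57BL/6 mice: *Insr*, *Irs1*, *Irs2*, *Pik3r1*, *Pik3ca*, *Akt1*, *Akt2*, *Foxo1*, *Tbc1d4* and *Socs3*. They were found by symbol among the 47937 genes of the count files, after the version was dropped from each Ensembl identifier. The mice were *Mof*+/+ (wild type) or *Mof*+/- (heterozygous for *Mof*, also called *Kat8*, which encodes a histone acetyltransferase). Those on standard diet (SD) were 8 weeks old, with 3 libraries per genotype, and those on high-fat diet (HFD) were 27 weeks old after 20 weeks of feeding, with 2 libraries per genotype. These times are those of the series text, and the study's paper gives a longer feeding time. Diet and age therefore cannot be told apart. The question for these genes was whether *Mof* dosage, diet or both went with a different transcript level of the insulin pathway in fat. The labels call the libraries biological replicates, and no label says whether animals were pooled.

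Insulin binding switches on the tyrosine kinase activity of the insulin receptor, encoded by *Insr*, which phosphorylates the docking proteins IRS1 and IRS2. These recruit phosphoinositide 3-kinase, an enzyme of a regulatory subunit (the main one from *Pik3r1*) and a catalytic subunit (here from *Pik3ca*), and its lipid product brings AKT to the membrane, where AKT is switched on. In adipocytes AKT2 is the form most tied to glucose uptake: it phosphorylates the Rab GTPase-activating protein AS160, encoded by *Tbc1d4*, so that vesicles with the glucose transporter GLUT4 reach the surface, and it keeps the transcription factor FOXO1 out of the nucleus. SOCS3, induced by cytokines through STAT3, binds the receptor and IRS proteins and dampens the signal. RNA levels say nothing of phosphorylation, which is how most of the signal travels.

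Total counts per library ranged from 1044355 (HFD *Mof*+/- replicate 1) to 17171947. All 12 adipocyte markers (such as *Adipoq* and *Plin1*) were detected in each of the 10 libraries. Some libraries stood apart. In the libraries labelled SD *Mof*+/-, *Xist*, which is transcribed from the inactive X chromosome of females, had 390 to 2388 counts and the Y-linked genes *Ddx3y*, *Eif2s3y*, *Kdm5d* and *Uty* had 0, whereas *Xist* was at 0 in each of the other 7 libraries and *Ddx3y* was detected in all 7. The study's methods name male mice. On SD, sex and genotype therefore cannot be told apart, and neither can sex and diet among *Mof*+/- libraries. HFD *Mof*+/- replicate 1 had 26.9% of its counts in genes of the mitochondrial genome, against 1.79% to 8.82% in the others, and 7.28% in 12 skeletal muscle markers, against at most 0.179%. The group named in the column heading of the third SD library of each genotype was the other genotype, and the sample titles were followed here. *Kat8* was at 18.9, 18.9 and 17.3 normalised CPM (counts per 1000000 counts of the library after TMM scaling) in SD *Mof*+/+, 13.4, 20.6 and 13.6 in SD *Mof*+/-, 17.0 and 18.1 in HFD *Mof*+/+, and 24.1 and 10.8 in HFD *Mof*+/-. It was thus not lower in replicate 2 of SD or replicate 1 of HFD, so that *Mof*+/- below means a library labelled so.

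Promoter sequences of 9 of the 10 genes were in the RefSeq-based table (GRCm38.p6). Those of *Irs1*, *Irs2*, *Pik3r1* and *Socs3* are shown because these genes differed most between groups or, for *Irs2*, because it is the relative of *Irs1*. Each is the stretch of 250 bases before the RefSeq start of transcription, 5′ to 3′ on the gene's own strand. It was cut to 165 bases for *Socs3*, where most of the rest is exonic in GENCODE M21. That *Socs3* window lies within the GENCODE gene span given below, downstream of its annotated 5′ end. Capitals mark matches, on either strand, to CAAAACA (core of the insulin response element, bound by FOXO factors), GTAAACA (FOXO), CACGTG (E-box), TTCNNNGAA (STAT) or TGANTCA (AP-1).
Irs1, chr1:82291440-82291689, minus strand: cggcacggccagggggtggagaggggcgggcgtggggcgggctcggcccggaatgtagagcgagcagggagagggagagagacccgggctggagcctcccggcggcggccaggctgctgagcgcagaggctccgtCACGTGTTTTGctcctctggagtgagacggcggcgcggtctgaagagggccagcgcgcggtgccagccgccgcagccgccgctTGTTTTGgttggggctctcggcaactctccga
Irs2, chr8:11008930-11009179, minus strand: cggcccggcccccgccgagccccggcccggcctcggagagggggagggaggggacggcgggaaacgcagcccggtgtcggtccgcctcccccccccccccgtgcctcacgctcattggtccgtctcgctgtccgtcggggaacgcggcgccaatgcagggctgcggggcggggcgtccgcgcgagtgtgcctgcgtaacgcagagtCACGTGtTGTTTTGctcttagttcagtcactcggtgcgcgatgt
Pik3r1, the upstream of 2 starts, chr13:101768218-101768467, minus strand: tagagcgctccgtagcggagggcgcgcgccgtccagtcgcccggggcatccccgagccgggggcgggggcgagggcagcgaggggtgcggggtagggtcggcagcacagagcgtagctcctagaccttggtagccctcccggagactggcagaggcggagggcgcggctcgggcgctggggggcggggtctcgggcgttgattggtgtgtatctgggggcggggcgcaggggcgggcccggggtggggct
Socs3, chr11:117969452-117969616, minus strand: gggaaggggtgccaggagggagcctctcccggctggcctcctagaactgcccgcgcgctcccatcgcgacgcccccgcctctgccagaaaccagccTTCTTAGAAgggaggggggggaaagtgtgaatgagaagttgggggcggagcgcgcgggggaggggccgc

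The *Irs1* and *Irs2* windows each held CACGTG and CAAAACA, the latter read on the shown strand as TGTTTTG. In *Irs1* the E-box began 115 bases before the start and shared its last 2 bases with a TGTTTTG, and another TGTTTTG lay 32 bases before the start. In *Irs2* the E-box began 44 bases and the TGTTTTG 37 bases before the start. Of 32851 promoter windows in the table, cut to the same 250 bases, 5.56% held CAAAACA and 6.02% CACGTG. The *Pik3r1* window held no capitalised motif and 4 matches to GGGCGG (GC box, in 32.7% of windows). The *Socs3* window held TTCTTAGAA, a match to the STAT motif (7.02% of windows), 154 bases before the RefSeq start. Of the genes not shown, *Pik3ca* held TGANTCA (6.75% of windows), a start of *Akt1* held GTAAACA (3.17%) and a start of *Akt2* held TTCNNNGAA. These are matches of letters and were not tested as binding sites.

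To compare genes, normalised CPM was divided by the length of each gene's merged exons. In SD *Mof*+/+ fat, *Pik3r1* (45.5 ± 20.3 normalised CPM per kb, s.d., n = 3), *Akt2* (38.1 ± 3.96) and *Akt1* (34.1 ± 2.89) were the highest of the 10 genes, and their ranges over libraries overlapped. *Akt1* lay above *Foxo1* (11.8 ± 2.79) without overlap. From *Foxo1* down, each gene overlapped the next: *Irs1* at 8.92, *Insr* at 7.43, *Tbc1d4* at 7.15, *Pik3ca* at 6.84, *Socs3* at 5.40 and *Irs2* at 4.37 per kb. The order differed elsewhere. In SD *Mof*+/- libraries *Akt2* was first (48.7 ± 7.39 per kb, n = 3) and *Socs3* second (42.7 ± 35.7), with overlapping ranges. In HFD *Mof*+/+ libraries *Akt1* (36.1 ± 1.58 per kb, n = 2) and *Akt2* (33.0 ± 1.78) stood far above *Pik3r1* (7.28 ± 2.07) and *Irs1* was last (1.52 ± 0.478). In HFD *Mof*+/- libraries *Akt2* was first (52.0 ± 28.1 per kb, n = 2), *Akt1* second (18.4 ± 3.99) and *Pik3r1* next (11.7 ± 2.03), without overlap between these neighbours.

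**Figure D1:**
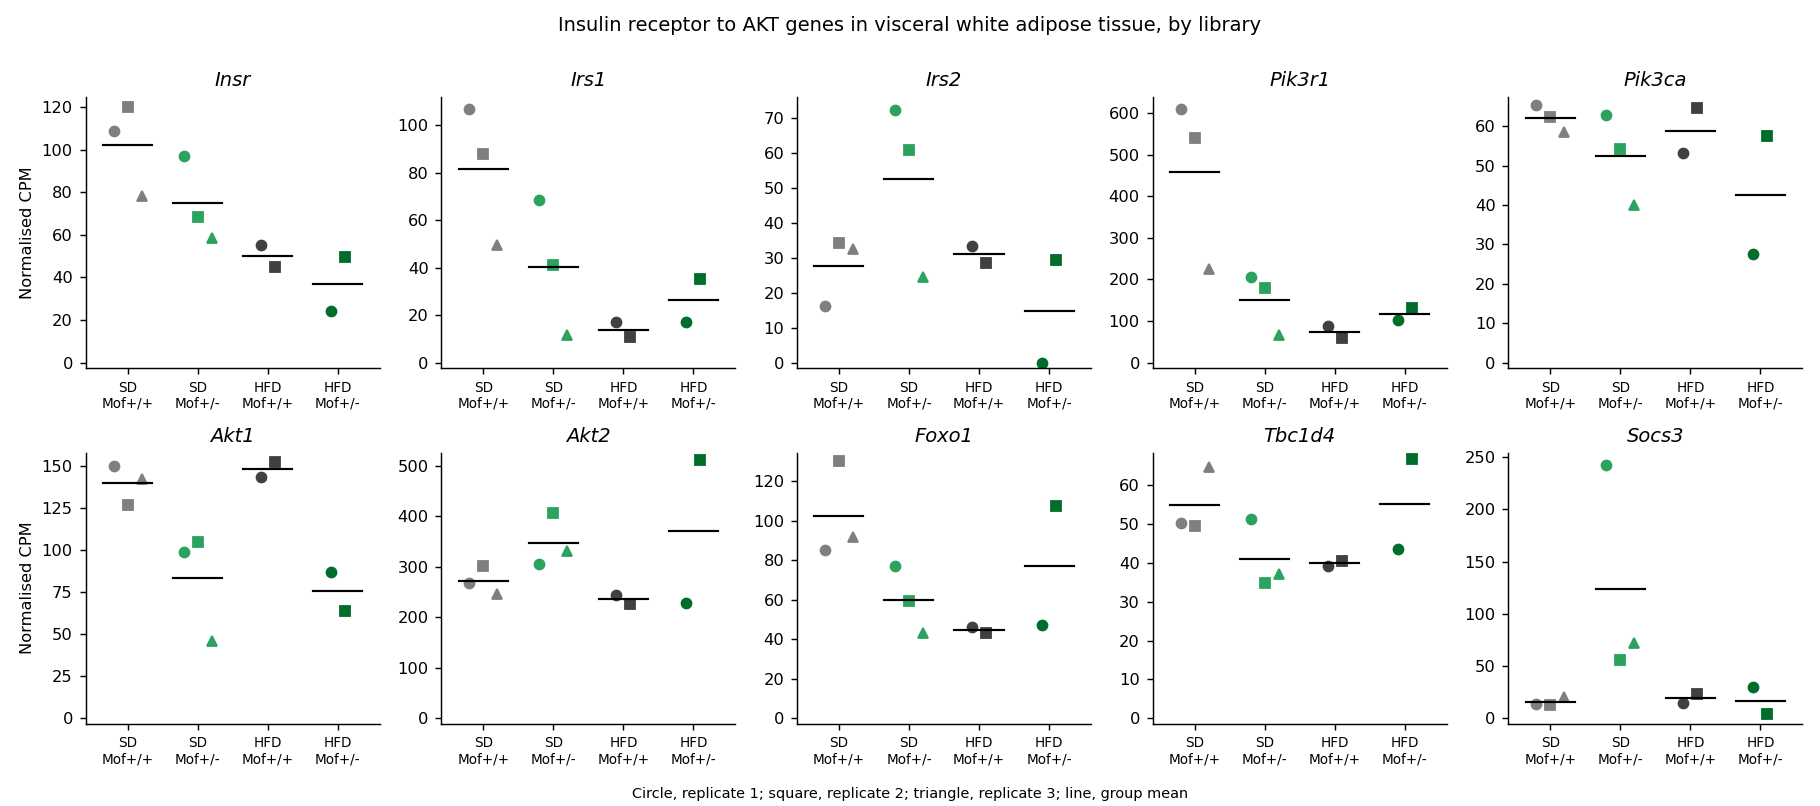
Normalised CPM (vertical axes, linear) of each of the 10 genes in every library, by diet and genotype; symbols are replicates and lines are group means. *Pik3r1* falls from between 226 and 611 in SD *Mof*+/+ to 88.1 and 58.6 in HFD *Mof*+/+, and *Socs3* is above 50 only in the 3 SD *Mof*+/- libraries (55.7 to 242).

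*Insr* encodes the receptor itself (ENSMUSG00000005534.10, chromosome 8, 3122061 to 3279617, minus strand, GRCm38). Its level was 109, 120 and 78.1 normalised CPM in SD *Mof*+/+, 97.1, 68.5 and 58.7 in SD *Mof*+/-, 55.2 and 45.1 in HFD *Mof*+/+, and 24.1 and 49.8 in HFD *Mof*+/-. All 4 HFD libraries lay below all 6 SD libraries, by a margin of 55.2 to 58.7, while the genotypes overlapped on each diet. Of all genes, 24% were lower on HFD without overlap in *Mof*+/+ and 20.3% in *Mof*+/-, and the share apart over both genotypes was not counted. The lowest value rested on 21 counts, with an exact binomial 95% interval of 14.9 to 36.8 normalised CPM (counting error only, as for every interval given here).

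The docking proteins IRS1 and IRS2 are encoded by separate genes. *Irs1* (ENSMUSG00000055980.2, chromosome 1, 82233101 to 82291416) was at 107, 87.8 and 49.8 normalised CPM in SD *Mof*+/+, 68.7, 41.1 and 11.8 in SD *Mof*+/-, 17.0 and 10.8 in HFD *Mof*+/+, and 17.2 and 35.3 in HFD *Mof*+/-. Both HFD *Mof*+/+ values were below each SD *Mof*+/+ value, the SD genotypes overlapped, and both HFD *Mof*+/- values exceeded the HFD *Mof*+/+ ones, the nearest by 17.2 to 17.0. *Irs2* (ENSMUSG00000038894.7, chromosome 8, 10984681 to 11008458) was at 16.3, 34.3 and 32.4 in SD *Mof*+/+, 72.3, 60.9 and 24.6 in SD *Mof*+/-, 33.5 and 28.4 in HFD *Mof*+/+, and 0 and 29.4 in HFD *Mof*+/-. Every pair of groups overlapped for *Irs2* in the comparisons made. The count of 0, in the shallow HFD *Mof*+/- replicate 1, had an interval that reached 4.23 normalised CPM, and 3 counts there correspond to 3.44. Reads were counted without strand, and 2822 of the 9144 exonic bases of *Irs1* lie opposite exons of Gm9747. That gene had at most 2 counts in any library, which does not show how reads from the shared bases were assigned. Smaller overlaps lie in *Irs2* (162 of 6323 bases) and *Foxo1* (674 of 8665 bases). The per-kb values use all exonic bases, and the effect of the overlaps on them was not tested.

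Of the phosphoinositide 3-kinase subunits, *Pik3r1* varied most. *Pik3r1* (ENSMUSG00000041417.15, chromosome 13, 101680563 to 101768217) was at 611, 540 and 226 normalised CPM in SD *Mof*+/+, 206, 180 and 65.4 in SD *Mof*+/-, 88.1 and 58.6 in HFD *Mof*+/+, and 103 and 132 in HFD *Mof*+/-. All 3 SD *Mof*+/+ libraries lay above the other 7, although replicate 3, at 226, was close to the highest *Mof*+/- value of 206. *Pik3ca* (ENSMUSG00000027665.13, chromosome 3, 32397671 to 32468486) stayed between 53.1 and 65.5 in all *Mof*+/+ libraries and was at 62.8, 54.2 and 40.0 in SD *Mof*+/- and 27.5 and 57.6 in HFD *Mof*+/-. Its groups overlapped in each of the 4 comparisons of groups.

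The AKT kinases are encoded by separate genes, and neither passed in a comparison of the genotypes. *Akt1* (ENSMUSG00000001729.14, chromosome 12, 112653821 to 112674884), the widely expressed form, was at 150, 127 and 142 normalised CPM in SD *Mof*+/+, 99.1, 105 and 46.0 in SD *Mof*+/-, 144 and 153 in HFD *Mof*+/+, and 87.0 and 63.9 in HFD *Mof*+/-. All 5 *Mof*+/- values were below all 5 *Mof*+/+ values. Of all genes, 35.4% did not overlap between genotypes on SD and 51% on HFD, and the share apart over both diets was not counted. The *Akt1* separation follows the sample titles, and by column headings its log2 fold change on SD was 0.10. *Akt2* (ENSMUSG00000004056.15, chromosome 7, 27591552 to 27640826), the form prominent in insulin-responsive tissues, was at 269, 302 and 245 in SD *Mof*+/+, 305, 406 and 331 in SD *Mof*+/-, 244 and 227 in HFD *Mof*+/+, and 229 and 512 in HFD *Mof*+/-. It did not overlap between the genotypes on SD, where the gap was 302 to 305, and overlapped on HFD.

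*Foxo1* (ENSMUSG00000044167.6, chromosome 3, 52268336 to 52353221) encodes the transcription factor that AKT holds in check. It was at 85.3, 130 and 91.5 normalised CPM in SD *Mof*+/+, 77.0, 59.4 and 43.3 in SD *Mof*+/-, 46.3 and 43.1 in HFD *Mof*+/+, and 47.0 and 107 in HFD *Mof*+/-. On SD every *Mof*+/- value was lower than every *Mof*+/+ value and on HFD every one was higher, by a margin of 47.0 to 46.3. *Tbc1d4* (ENSMUSG00000033083.16, chromosome 14, 101442360 to 101609191), the link to glucose transporter traffic, varied least among the effectors, at 49.5 to 64.8 in SD *Mof*+/+, 34.7 to 51.3 in SD *Mof*+/-, 39.3 and 40.6 in HFD *Mof*+/+, and 43.5 and 66.7 in HFD *Mof*+/-.

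*Socs3* (ENSMUSG00000053113.3, chromosome 11, 117966079 to 117970047) encodes the feedback inhibitor. It was at 13.9, 12.98 and 19.9 normalised CPM in SD *Mof*+/+, 242, 55.7 and 72.3 in SD *Mof*+/-, 14.9 and 23.0 in HFD *Mof*+/+, and 29.8 and 3.72 in HFD *Mof*+/-. The 3 SD *Mof*+/- libraries lay above the other 7, and replicate 1 lay far above its group. The 2 HFD *Mof*+/- values rested on 26 and 20 counts, with intervals of 19.5 to 43.6 and 2.27 to 5.74.

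In *Mof*+/+ fat, 4 of the 10 genes fell with HFD, at an adjusted p-value under 0.05 in edgeR's quasi-likelihood test with Benjamini-Hochberg adjustment over the 14939 genes tested. They were those for the receptor, IRS1, the regulatory subunit and FOXO1, whereas *Akt1*, *Akt2*, *Pik3ca*, *Irs2*, *Tbc1d4* and *Socs3* did not pass. Of all genes tested, 10.3% passed in either direction and 4.06% as lower. *Pik3r1* dropped from 458.7 ± 204.8 to 73.4 ± 20.9 normalised CPM (s.d., n = 3 and 2), or by −2.63 on the log2 scale (standard error, SE, 0.46, adjusted p = 0.0196). *Irs1* dropped from 81.6 ± 29.2 to 13.9 ± 4.37 (−2.54, SE 0.38, adjusted p = 0.0109). *Foxo1* dropped from 102 ± 24.2 to 44.7 ± 2.30 (−1.18, SE 0.23, adjusted p = 0.0256), and *Insr* from 102 ± 21.6 to 50.1 ± 7.10 (−1.01, SE 0.23, adjusted p = 0.0377). On the same scale *Akt1* differed by 0.10 ± 0.17 (± SE), *Pik3ca* by −0.06 ± 0.18 and *Akt2* by −0.19 ± 0.18. The groups did not overlap for 6 genes, all lower on HFD (the 4 above, *Akt2* and *Tbc1d4*), against 49.2% of all genes in either direction and 24% as lower. The median log2 fold change of the 10 genes was −0.32 and that of all genes −0.04. With library totals in place of TMM scaling the median of all genes moved to −0.17 and the split of calls from 933 higher and 607 lower to 671 and 823, and the same number of members, 4, was called.

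Beside this diet difference, the 10 macrophage markers took 0.115% to 0.198% of counts in SD and 0.556% to 0.773% in HFD *Mof*+/+ libraries (8 of 10 called higher, none at 0 in a library of these groups), the 10 endothelial markers took 0.134% to 0.340% and 0.0533% to 0.0657% (3 called lower), and the 12 adipocyte markers 3.26% to 4.05% and 2.74% to 3.17% (3 called lower, 1 higher). In bulk tissue fewer cells of a type and less RNA per cell cannot be told apart, and the part of cell makeup in the lower *Insr*, *Irs1*, *Pik3r1* and *Foxo1* was not tested. All 4 calls were lost with all 10 libraries in 1 fit (adjusted p from 0.0570 for *Pik3r1* to 0.323 for *Insr*) and with the third SD libraries grouped by their column headings (0.516 to 0.693, with fold changes of the same sign). They also depended on single libraries: without HFD *Mof*+/+ replicate 2, 0 of the 10 genes passed, without HFD *Mof*+/+ replicate 1 only *Irs1* did, without SD *Mof*+/+ replicate 1 *Irs1* and *Foxo1* did, and without SD *Mof*+/+ replicate 2 all but *Insr* did. The fold changes kept their sign in each of these fits, and with 1 library left in a group its spread was taken from the other group.

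Between the genotypes on SD, *Socs3* was the 1 gene of 10 that passed, and it rose in *Mof*+/-. It went from 15.6 ± 3.76 to 123.4 ± 103.3 normalised CPM (s.d., n = 3 each), a difference of 2.97 on the log2 scale (SE 0.56, adjusted p = 0.0326), where 5.21% of 13864 genes passed in either direction and 3.33% as higher. *Pik3r1* went from 458.7 ± 204.8 to 150.3 ± 74.7, a difference of −1.62 (SE 0.49), and missed the threshold (adjusted p = 0.0834). It passed in DESeq2 (adjusted p = 0.00453). *Akt1* differed by −0.76 (SE 0.32, adjusted p = 0.174) and *Foxo1* by −0.78 (SE 0.28, adjusted p = 0.128). The groups did not overlap for 5 genes, *Socs3* and *Akt2* higher and *Pik3r1*, *Akt1* and *Foxo1* lower, against 35.4% of all genes (18% higher and 17.5% lower). The median log2 fold change was −0.44 over the 10 genes and −0.07 over all genes. With library totals in place of TMM scaling the median of all genes moved to −0.43, the split of calls from 461 higher and 262 lower to 153 and 532, and the log2 fold change of *Akt2* to −0.02, while *Socs3* remained called at 2.62. The *Socs3* call was lost without any 1 of the SD *Mof*+/+ libraries (adjusted p from 0.0937 to 0.160), without SD *Mof*+/- replicate 2 (0.0742) and with all 10 libraries in 1 fit (0.0581). With the third SD libraries grouped by their column headings the log2 fold change was 1.66 and not called (adjusted p = 0.9998). It held without the high *Mof*+/- replicate 1, with a log2 fold change of 2.04 (adjusted p = 0.0243).

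**Figure D2:**
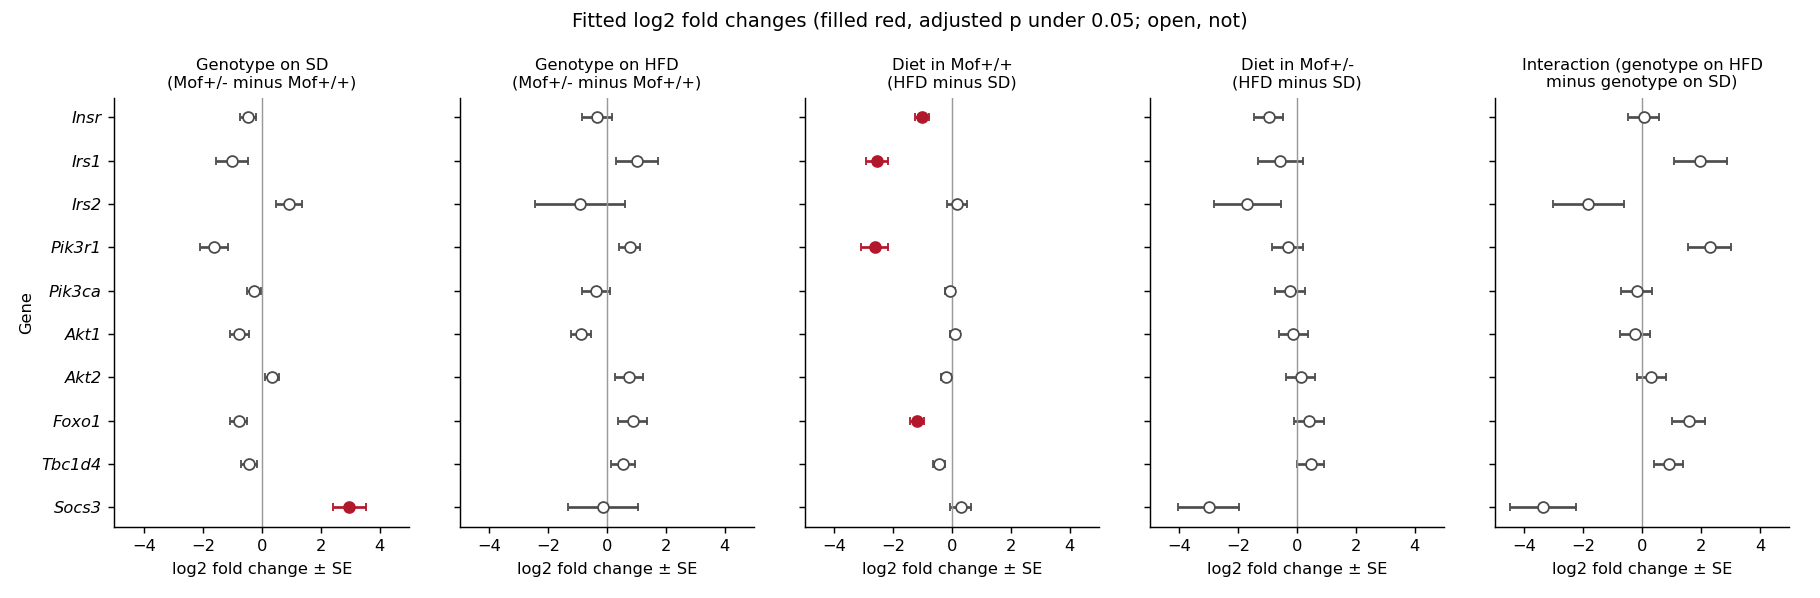
Fitted log2 fold change with SE (horizontal axes) of the 10 genes in the 4 comparisons of groups and the interaction; filled red points have an adjusted p under 0.05. Only *Insr*, *Irs1*, *Pik3r1* and *Foxo1* (diet in *Mof*+/+) and *Socs3* (genotype on SD) are filled, and the wide bars of *Irs2* and *Socs3* on HFD reflect standard errors of 1.54 and 1.18.

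The *Socs3* difference on SD came with one in the immediate early genes, which are transcribed within minutes of a stimulus. Their summed level over 15 genes was 674, 851 and 801 normalised CPM in SD *Mof*+/+ and 4594, 1796 and 3173 in SD *Mof*+/-. The order of the SD *Mof*+/- replicates was that of *Socs3*, and the order of the SD *Mof*+/+ replicates was not. With HFD in *Mof*+/+, 2 of the 15 passed as higher and 3 as lower, while *Socs3* did not pass. On HFD the sums were 756 and 884 in *Mof*+/+ and 581 and 497 in *Mof*+/-. On SD 8 of the 15 passed as higher and 0 as lower, among them *Fosb* (log2 fold change 3.25), *Fos* (3.08), *Ier3* (2.89) and *Junb* (2.80). Of 13 tested genes of the STAT3 pathway that induces *Socs3*, 0 passed as higher and 1 as lower, against 5.21% of all genes in either direction. The 1 was the kinase gene *Jak2* (−1.52, SE 0.35, adjusted p = 0.0480), and 12 of the 13 had a negative fold change. Their median was −0.82, against −0.07 over all genes, whose share of negative fold changes was not counted. The 5 other pathway lists described below also leaned lower on SD. The dependence of level on exon length, given below, was not removed for the STAT3 list. The cytokine genes and receptors among these 13 gave no call, and the rest of the 15 listed genes had too few counts to be tested. The part of the immediate early genes in the *Socs3* difference was not tested, and sex and genotype cannot be told apart here.

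**Figure D3:**
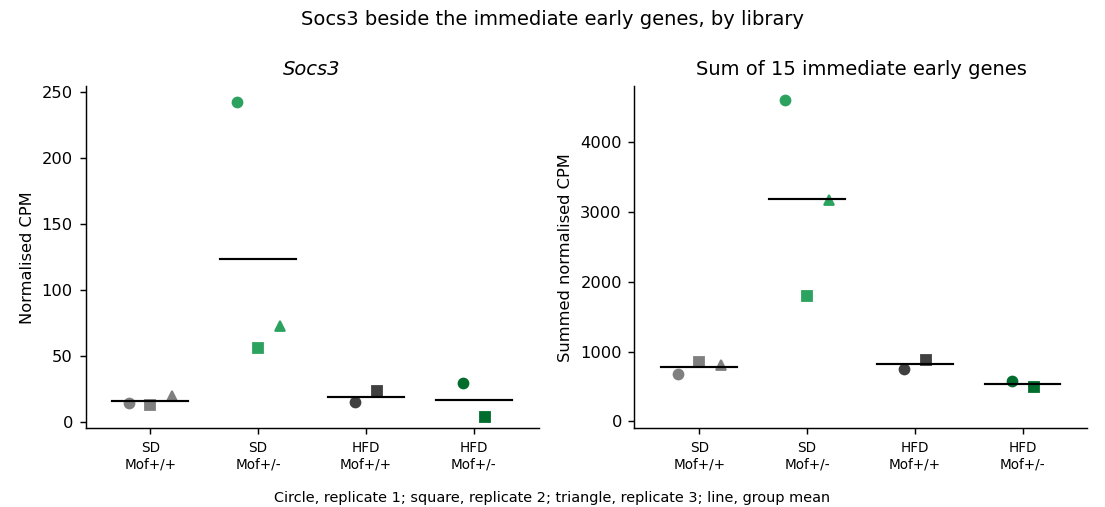
Normalised CPM of *Socs3* (left) and the summed normalised CPM of 15 immediate early genes (right) in every library, by diet and genotype; lines are group means. The 3 SD *Mof*+/- libraries lie above the other 7 in both panels, at 55.7 to 242 for *Socs3* and 1796 to 4594 for the sum.

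The endothelial markers took 0.134% to 0.340% of counts in SD *Mof*+/+ and 0.0294% to 0.0370% in SD *Mof*+/- libraries, and 7 of 10 passed as lower. Adipocyte markers took 3.26% to 4.05% and 4.90% to 7.13%, with 4 of 12 higher, and mesothelial markers took 0.00238% to 0.0103% and 0.0177% to 0.0387%, with 4 of 8 higher. Glial markers reached 0.117% in SD *Mof*+/+ replicate 2 against at most 0.00572% in SD *Mof*+/-, and lymphocyte markers 0.0640% in SD *Mof*+/+ replicate 3 against at most 0.00272%. Macrophage markers took 0.174% to 0.202% in SD *Mof*+/-, and progenitor markers 0.444% to 0.592% in SD *Mof*+/+ and 0.292% to 0.752% in SD *Mof*+/-. These values stand beside the fold changes of *Pik3r1*, *Akt1*, *Akt2* and *Foxo1* on SD, and their part in them was not tested. The libraries also differed in how level depended on exon length: the Spearman correlation across genes between log2 CPM and length was 0.292 to 0.312 in SD *Mof*+/+ and 0.225, 0.149 and 0.0322 in SD *Mof*+/-. The members are mostly long, *Insr* longer than 96.7% and *Pik3r1* longer than 91.5% of genes. With that trend removed *Pik3r1* was at −1.18, *Socs3* at 2.84 (adjusted p = 0.0405) and *Insr* turned from −0.46 to 0.15. For diet in *Mof*+/+, *Insr* moved from −1.01 to −0.62 and was no longer called (adjusted p = 0.102), while *Irs1*, *Pik3r1* and *Foxo1* remained called.

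Between the genotypes on HFD no gene passed, neither a member nor any of 14120 genes (0% called; 1668 had an unadjusted p-value under 0.05, none of them a member, and DESeq2 called 209 genes and 0 members). *Irs1*, *Pik3r1*, *Foxo1* and *Tbc1d4* were higher without overlap and *Akt1* lower, 5 genes of 10, where 51% of all genes did not overlap (12.9% higher and 38.1% lower). The log2 fold changes were 1.02 ± 0.72 (standard error) for *Irs1*, 0.77 ± 0.37 for *Pik3r1*, 0.88 ± 0.49 for *Foxo1*, 0.56 ± 0.41 for *Tbc1d4* and −0.88 ± 0.34 for *Akt1*. All 5 lay beyond −0.24, the median of all genes, on their own side. With library totals that median was −0.54 and again no gene passed. The *Mof*+/- libraries differed from each other by more than their mean differed from that of *Mof*+/+ for each of the 10 genes but *Pik3r1* and *Akt1*, so also for *Irs1*, *Foxo1* and *Tbc1d4* among the 5 above. In normalised CPM the gap was widest for *Akt2* (229 and 512). Relative to level it was wider for *Socs3* (29.8 and 3.72) and *Irs2* (0 and 29.4). With only replicate 2 of *Mof*+/- kept, 7 members passed, *Irs1*, *Pik3r1*, *Akt2*, *Foxo1* and *Tbc1d4* as higher and *Akt1* and *Socs3* as lower. With only the shallow, muscle-marked replicate 1 kept, *Insr*, *Irs2*, *Pik3ca* and *Akt1* passed as lower. Such fits compare 1 library with 2 and take the spread from the *Mof*+/+ pair, and in them 4282 of 15932 and 7572 of 15761 genes passed. *Akt1* was called in the same direction in both.

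In *Mof*+/- fat no gene passed between the diets (0% of 13610 genes, with 1171 at an unadjusted p-value under 0.05 and 402 calls, none a member, in DESeq2). *Socs3* was lower on HFD without overlap (log2 fold change −2.99, SE 1.04, adjusted p = 0.481), and so was *Insr* (−0.97, SE 0.50, adjusted p = 0.654), so that 2 of 10 genes did not overlap against 29.6% of all genes and 20.3% as lower. *Irs1* differed by −0.57 ± 0.77 (± SE) and *Pik3r1* by −0.32 ± 0.54. For *Socs3* the call depended on the filter: with no filter on low counts it passed (−3.02, adjusted p = 0.000334). The comparison shares its SD libraries with the genotype comparison on SD, just as the other comparisons share libraries pairwise, so the same 3 high *Socs3* values enter both.

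The interaction asks whether the genotype difference changed with diet. No member passed, where 16 of 15897 genes (0.101%; 5 higher and 11 lower, or 4 and 4 with library totals) did, and 4 of 10 had an unadjusted p-value under 0.05, against 12.5% of all genes. They were *Pik3r1* (2.29 on the log2 scale, SE 0.73, adjusted p = 0.264), *Irs1* (1.97, SE 0.89, adjusted p = 0.397), *Foxo1* (1.58, SE 0.56, adjusted p = 0.299) and *Socs3* (−3.37, SE 1.13, adjusted p = 0.284). For *Pik3r1*, *Irs1* and *Foxo1* the genotype difference was thus negative on SD and positive on HFD, but none of these changes passed once all genes were tested. Only the SD *Mof*+/- libraries expressed *Xist*, so a change of the genotype difference with diet cannot be told apart from sex. Nor can it be told apart from age. In DESeq2 *Pik3r1* passed (2.42, adjusted p = 0.0428). The interaction was near 0 for *Insr* (0.05 ± 0.53, standard error) and *Akt1* (−0.24 ± 0.51).

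Ratios of paired genes within a library need no scaling between libraries. The ratio of *Akt2* to *Akt1* counts per kb was 1.03, 1.37 and 0.989 in SD *Mof*+/+, 1.77, 2.23 and 4.13 in SD *Mof*+/-, 0.979 and 0.853 in HFD *Mof*+/+, and 1.51 and 4.597 in HFD *Mof*+/-. All 5 *Mof*+/- libraries lay above all 5 *Mof*+/+ libraries. The mean difference between genotypes was 1.35 on the log2 scale, 1.18 on SD and 1.53 on HFD, with p = 0.0167 in a two-sided exact permutation test within diet, the smallest p that its 120 arrangements allow, and adjusted p = 0.133 over the 8 ratio tests made. On SD sex and genotype cannot be told apart. On HFD, where *Xist* was at 0 in both genotypes, each had 2 libraries, including the shallow, muscle-marked *Mof*+/- replicate 1. The part of sex and of cell makeup in the genotype difference was not tested. Removing the length trend gave 1.55, and leaving out each library in turn gave 0.951 to 1.76. Grouping the third SD libraries by their column headings gave 0.666 (p = 0.383 in the same exact test).

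No other ratio separated the genotypes in the same direction on both diets. *Irs2* to *Irs1* was 0.220 to 0.941 in SD *Mof*+/+, 1.52 to 2.99 in SD *Mof*+/-, and 2.85 and 3.80 in HFD *Mof*+/+. In HFD *Mof*+/- it was 0.0467 and 1.203, where the lower value stands for 0 against 15 counts. *Pik3r1* to *Pik3ca* was 3.47 to 8.40 in SD *Mof*+/+, 1.47 to 2.98 in SD *Mof*+/-, 1.496 and 0.819 in HFD *Mof*+/+, and 3.33 and 2.06 in HFD *Mof*+/-. For both ratios the genotypes were apart on each diet and in opposite directions, so that the mean over diets was −0.84 (exact permutation p = 0.80) and −0.07 (p = 0.967). *Insr* relative to *Igf1r*, the gene of the related IGF1 receptor, was 4.63 to 6.03 in 8 of the 10 libraries, whereas HFD *Mof*+/- gave 1.22 and 28.5, where *Igf1r* had 21 and 11 counts. The mean genotype difference was 0.10 on the log2 scale (exact permutation p = 0.783), and no diet difference of a ratio passed (adjusted p from 0.520 to 0.967 in the same exact test). The smallest p possible for diet in that test was 0.01, so a diet difference that stood out alone could not have passed after adjustment either.

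**Figure D4:**
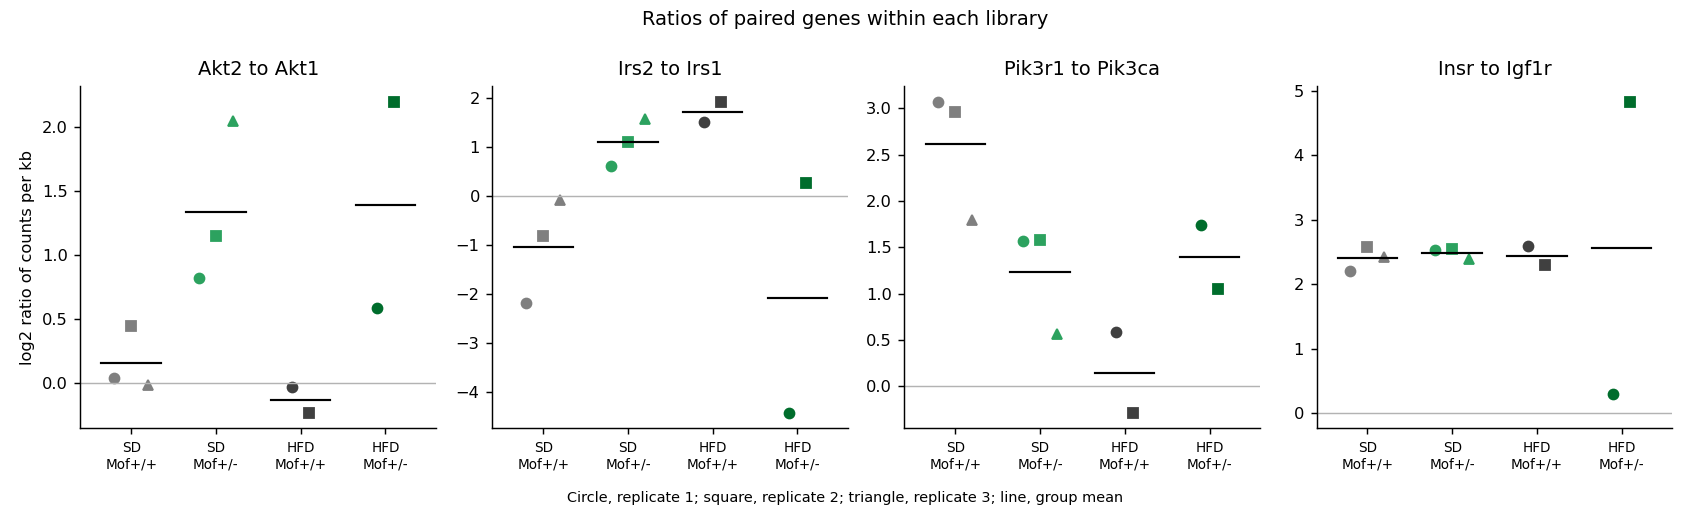
log2 ratio of counts per kb (vertical axes) of 4 gene pairs in every library, by diet and genotype; lines are group means. *Akt2* to *Akt1* is higher in all 5 *Mof*+/- libraries than in any *Mof*+/+ library, while *Irs2* to *Irs1* and *Pik3r1* to *Pik3ca* differ between genotypes in opposite directions on the 2 diets.

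Around the 10 genes, 66 further genes of the pathway in 5 lists were examined, of which 64 were tested in each comparison of groups. With HFD in *Mof*+/+ fat, 4 rose and 6 fell (15.6% of 64, against 10.3% of all genes), and their median log2 fold change was −0.18. The partners of the receptor that passed were *Grb10*, an adaptor that inhibits the receptor (−0.96, SE 0.23, adjusted p = 0.0419), *Grb2*, the adaptor toward RAS (0.85), and *Igf2r*, which clears IGF2 (0.84). *Pdpk1*, whose product PDK1 phosphorylates AKT, fell (−1.12, adjusted p = 0.0443), as did *Rictor*, a subunit of the complex mTORC2 that completes AKT activation (−1.05, adjusted p = 0.0297). Among AKT effectors, *Gys1*, muscle-type glycogen synthase (−1.80, adjusted p = 0.0118), *Pde3b*, the phosphodiesterase through which insulin restrains lipolysis (−1.73, adjusted p = 0.0227), and *Ppp1r3c*, a glycogen-targeting phosphatase subunit (−1.71), fell and *Bad*, a pro-apoptotic AKT substrate, rose (1.15). *Ptpre*, a phosphatase that can act on the receptor, rose (1.53, adjusted p = 0.0248).

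Between the genotypes on SD, 1 of the 64 rose and 2 fell (4.69%, against 5.21% of all genes): *Bad* (1.37, adjusted p = 0.0457), *Rictor* (−1.79, adjusted p = 0.0458) and *Trib2*, a pseudokinase that binds AKT (−2.00, adjusted p = 0.0388). On HFD, between diets in *Mof*+/- and in the interaction, 0 passed. Of the 11 phosphoinositide enzymes 10 were lower in *Mof*+/- on each diet, none called. Their median was −1.003 on SD and −0.81 on HFD, against −0.07 and −0.24 over all genes. On SD each other list also leaned lower, from 10 of 15 AKT effectors to 11 of 12 phosphatases and SOCS genes. The length trend was not removed for these lists. Among 10 tested genes that FOXO factors are known to activate, 2 rose in SD *Mof*+/- and 0 fell, against 3.33% of all genes called higher. They were *Pck1*, which encodes the cytosolic phosphoenolpyruvate carboxykinase, and *Gadd45a*, a stress response gene (2.71 and 2.27, adjusted p = 0.0472 and 0.0397). *Pck1* went from 455 ± 339 to 3010 ± 1461 normalised CPM (s.d.). Adipocyte markers also took more of the counts in SD *Mof*+/-, and their part in this difference was not tested. *Gadd45a* was also the 1 of 10 called with HFD in *Mof*+/+ (1.35, adjusted p = 0.0399), against 10.3% of all genes. From the STAT3 list, HFD in *Mof*+/+ went with higher *Saa3*, an acute phase gene (5.43, adjusted p = 0.00208), and lower *Lepr*, the leptin receptor gene (−4.25, adjusted p = 0.0332), whereas *Socs3* differed by 0.30 ± 0.35 (± SE).

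Across the 10 libraries, the gene whose log2 CPM followed each member most closely was sought among 11308 genes, as a description, since all values share library depth and composition. *Pik3r1* and *Irs1* were close to each other: *Irs1* was the nearest gene to *Pik3r1* and *Pik3r1* second to *Ptpn14* for *Irs1* (Pearson r = 0.961 between them, 0.963 without the shallow HFD *Mof*+/- replicate 1). *Akt1* was followed by *Hjurp* (0.987) and *Cnot6* (0.978), and *Akt2* by *Hadh* (0.947), *Fitm2* (0.940) and *Lipe* (0.915), which encode an enzyme of fatty acid oxidation, a lipid droplet protein and hormone-sensitive lipase. *Foxo1* was followed by *Mknk2* (0.9498) and *Insr* by *Pcm1* (0.976). *Socs3* was followed by *Lrrn4cl* (0.968), *Paics* (0.952) and *Col14a1* (0.944). For *Irs2* the nearest was *Kcns3* at 0.994, and 0.890 without HFD *Mof*+/- replicate 1, where *Irs2* was at 0. *Tbc1d4* had no gene above 0.886 (*Tada1*).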

How the data were processed

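Poly(A) RNA of visceral WAT was sequenced with an unstranded kit (TruSeq RNA v2). Per the labels and methods, the authors aligned reads to GRCm38 with STAR and counted them with featureCounts (Subread 1.5.0-p1); the deposited values are raw read counts per gene for each of 10 libraries, 1044355 to 17171947 in total. The annotation release is not given in the sources used here. Of 47937 identifiers, 47224 matched a symbol after the version was dropped, and exon lengths came from GENCODE M21. Samples were grouped by title. Genes were filtered with filterByExpr, scaled by TMM and tested with edgeR 4.0.16 (quasi-likelihood, robust) on the 2 groups compared, or with genotype, diet and their interaction on all 10 libraries; the threshold was an adjusted p of 0.05. Normalised CPM is count per 1000000 of TMM-scaled library size. Standard errors were the fold change divided by the root of F. Ratios used counts plus 0.5. p-values set a difference against the spread estimated between these libraries or, for the ratios, against all rearrangements of their labels. Scripts were tested on simulated data. Alternatives were DESeq2 1.42.0, other scalings and filters, removal of the length trend or of muscle and mitochondrial genes, and leaving out libraries; use of library totals was chosen after seeing the data. The members and lists were chosen with earlier results of these data known. All 10 members are named; up to 4 called genes per list and comparison, largest fold change first, and for likeness the 3 genes of highest r were eligible. Marker lists were given as sums.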

Additional observations from a re-analysis of the deposited data

How the results depend on the processing

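Members called are given first. Between genotypes on SD, 1 was called as reported, 2 in DESeq2, with a minimum of 10 counts in every library and with the replicate block (*Socs3* and *Pik3r1* each time), 0 with all 10 libraries in 1 fit and with the third SD libraries grouped by column headings, and 0 to 1 on leaving out libraries. For diet in *Mof*+/+, 4 became 0 in the last 2 of these settings and 0 to 4 on leaving out libraries. For genotype on HFD, 0 became 0 to 7 on leaving out libraries. For diet in *Mof*+/-, 0 became 1 (*Socs3*) without a filter and with the block, and 0 to 1 on leaving out libraries. For the interaction, 0 became 1 (*Pik3r1*) in DESeq2 and 0 to 1 on leaving out libraries. Same-numbered libraries did not deviate together (correlations from −0.0428 to 0.0320 over the pairs), so replicate numbers share only a number; the block gave 472, 142 and 205 calls over all genes for genotype on SD, genotype on HFD and diet in *Mof*+/-, where 723, 0 and 0 were reported.

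Calls over all genes were, in DESeq2, 2211, 209, 2990, 402 and 491 for genotype on SD, genotype on HFD, diet in *Mof*+/+, diet in *Mof*+/- and the interaction, against 723, 0, 1540, 0 and 16 as reported. With all 10 libraries in 1 fit the first 4 were 212, 1, 150 and 194. With no filter, genotype on SD gave 1385, diet in *Mof*+/- 342 and the interaction 151, and with a minimum of 10 counts 1234, 22 and 34. Diet in *Mof*+/- gave 1 with DESeq2 size factors in edgeR, and the interaction gave 8 with library totals. Column headings gave 0 for genotype on SD, diet in *Mof*+/+ and the interaction. Leaving out libraries gave 18 to 1212, 76 to 7572, 95 to 2320, 0 to 2028 and 6 to 3191. The cause was not tested.

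Some fold changes turned sign. With headings they were *Pik3ca* 0.056, *Akt1* 0.10 and *Tbc1d4* 0.13 for genotype on SD, *Pik3ca* 0.094 and *Socs3* −0.78 for diet in *Mof*+/+, *Insr* −0.17 for the interaction, and the *Pik3r1* to *Pik3ca* genotype difference 0.35. Without the length trend they were *Insr* 0.15 and *Pik3ca* 0.20 for genotype on SD, *Pik3ca* 0.22 and *Akt2* 0.025 for diet in *Mof*+/+, and *Insr* −0.31 for the interaction. With library totals *Akt2* was −0.016 for genotype on SD and *Akt1* −0.028 for diet in *Mof*+/+. With the replicate block *Akt2* was −0.00102 for diet in *Mof*+/-.

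Leaving out libraries gave, for genotype on HFD, *Insr* −1.02 to 0.028, *Pik3ca* −1.05 to 0.00831 and *Socs3* −2.31 to 0.70, and for diet in *Mof*+/+, *Irs2* −0.10 to 0.35, *Pik3ca* −0.20 to 0.10 and *Socs3* −0.040 to 0.60. For diet in *Mof*+/- it gave *Irs1* −1.23 to 0.036, *Pik3ca* −0.92 to 0.15, *Akt1* −0.40 to 0.10, *Akt2* −0.59 to 0.57 and *Foxo1* −0.34 to 0.85, and for the interaction *Insr* −0.63 to 0.48, *Pik3ca* −0.87 to 0.26, *Akt1* −0.50 to 0.00445 and *Akt2* −0.41 to 0.81. Ratio differences were −0.52 to 0.28 (*Akt2* to *Akt1*, diet), −2.01 to 0.34 and −1.38 to 0.96 (*Irs2* to *Irs1*, genotype and diet), −0.28 to 0.15 (*Pik3r1* to *Pik3ca*, genotype), −1.04 to 1.24 and −1.08 to 1.19 (*Insr* to *Igf1r*). Depth limits HFD *Mof*+/- replicate 1, where 3 counts correspond to 3.44 normalised CPM.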
